A study of Mus musculus with 10 samples.

Results

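Solute carriers are membrane proteins that move ions, metals, sugars, amino acids, nucleotides and other small molecules across membranes. The 172 genes described here were chosen by their mean deposited level in clone 4T1-T of the mouse mammary carcinoma line 4T1. They are the entries with a solute carrier symbol (Slc or Slco followed by a number) whose deposited log2 value averaged at least 7.5 over the 10 libraries. Of 23479 gene entries, 384 carry such a symbol and 181 reached that level. Of those, 9 are not members, because the rule leaves out 11 carriers of amino acids, glucose and lactate, Slc7a11 and Slc2a1 among them. Of the 172 members, 167 encode carriers. The remaining 5 share only the symbol: Slc4a1ap, Slc7a6os, Slc9a3r1, Slc9a3r2 and the pseudogene Slc2a4rg-ps.

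4T1 is a metastatic line, and 4T1-T was derived from 1 of its cells. All groups were that clone, kept in the same serum-containing medium, and each group carried a short hairpin RNA. The control hairpin (shRenilla) is directed at Renilla luciferase, shSerpine2-1 and shSerpine2-2 at Serpine2, and shSlpi-1 and shSlpi-2 at Slpi, both of which encode secreted inhibitors of serine proteases. Each of the 5 groups had 2 libraries, A and B, and the question put to them is which transcripts differ when either inhibitor is lowered. The labels do not say whether A and B are separate cultures, and p-values therefore reflect the spread of these libraries alone, part of which may be technical. Both knockdowns were compared with the same 2 shRenilla libraries, so the results against shRenilla are not independent of each other. All cells descend from a single clone, and the control is a single hairpin.

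Most carriers work by facilitated diffusion, by exchange, or by coupling to the sodium or proton gradient that pumps maintain. Zinc shows how families divide the work: ZIP proteins (the Slc39 family) bring zinc into the cytosol from outside the cell or from organelles, and ZnT proteins (the Slc30 family) move it out of the cytosol. In the mammary gland carriers feed milk secretion, and in tumour cells they supply nutrients, export acid and handle metals. The large Slc25 family sits in mitochondrial membranes, and the Slc35 family carries nucleotide sugars into the Golgi apparatus, where glycans are built.

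Library depth was 15877431 to 24026620 reads, and a count of 0 allows for 3 reads (2.30 to 3.48 after normalization), a limit that covers counting error only. Serpine2 stood at 3256 and 3145 normalized reads in shRenilla and at 128 to 514 in the 4 libraries with Serpine2 hairpins. It was also below the control, at 1331 to 1731, in the 4 libraries with Slpi hairpins. Slpi stood at 1189 and 1313 in shRenilla and at 60.9 to 146.7 in the 4 libraries with Slpi hairpins, while shSerpine2-1 had 326 and 414 and shSerpine2-2 had 1111 and 1218. "Serpine2 lowered" and "Slpi lowered" below therefore name the hairpins' target only: the Slpi libraries carried less Serpine2 as well, and shSerpine2-1 less Slpi, and the effects of both transcripts cannot be told apart there. The shSlpi-2 libraries stood apart from the rest. Ribosomal RNA (Rn45s) took 6.88% and 6.91% of their reads, against 0.881% to 1.96% elsewhere, and their chi-square per degree of freedom between A and B was 9.66, against 1.51 to 2.64 in the other groups. All 5 epithelial markers looked for were expressed (Krt8, Krt18, Epcam, Cdh1 and, weakly, Cldn7), and their summed level was 19695 and 19246 in shRenilla, 22072 to 23882 in the other hairpin libraries but shSlpi-2, and 26646 and 26871 in shSlpi-2. None of 5 endothelial markers reached a mean of 10, and 1 of 5 did among those of leukocytes (Cd68) and of fibroblasts (Pdgfra). The fibroblast sum, nearly all of it Pdgfra, was 904 and 887 in shRenilla and 459 to 773 in the 8 knockdown libraries, so both sums moved with every comparison against shRenilla. The part of these differences in the results below was not tested, but results were also computed without shSlpi-2.

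The members' mean levels ran from 35.5 to 17190 normalized reads with a median of 457, and all 172 passed the minimum mean of 10 required for testing. In shRenilla alone 170 would have reached the threshold, and the other two, Slc2a8 and Slc25a29, passed no test against shRenilla. Just inside the threshold were Slc22a29, Slc25a29 and Slc2a8, each with a mean of 7.55 on the deposited log2 scale, and just outside were Slc25a35 at 7.499, Slc6a20b at 7.497 and Slc23a1 at 7.493.

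Per kb of annotated exon, the most abundant members were carriers of the inner mitochondrial membrane. The ranking covers members only: Slc2a1, which the rule leaves out, averaged 1924 normalized reads per kb. Slc25a4 and Slc25a5, which exchange ADP for ATP, averaged 7304 and 6390 normalized reads per kb, and Slc25a3, the phosphate carrier that supplies ATP synthase, 2270. Slc25a24, a carrier of ATP-magnesium and phosphate, followed at 1588 per kb. Then came carriers of the cell surface: Slc6a6 (taurine) at 1478, Slc16a1 (lactate and other monocarboxylates) at 1409, Slco2a1 (prostaglandins) at 1206, the zinc importer Slc39a10 at 1097 and Slc20a2 (phosphate) at 846. The zinc transporter of vesicles Slc30a4, whose loss in lethal milk mice leaves milk short of zinc, stood at 840. By role, medians per kb were highest in the 6 transporters of metals other than zinc (330), were 128 in the 17 zinc transporters and in the 22 nucleotide sugar and Golgi transporters, and were lowest in the 10 carboxylate and fatty acid transporters (29.2). Slc25a4 and Slc25a5 are close in sequence and have processed copies elsewhere in the genome, so the split of reads between them is uncertain.

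**Figure D1:**
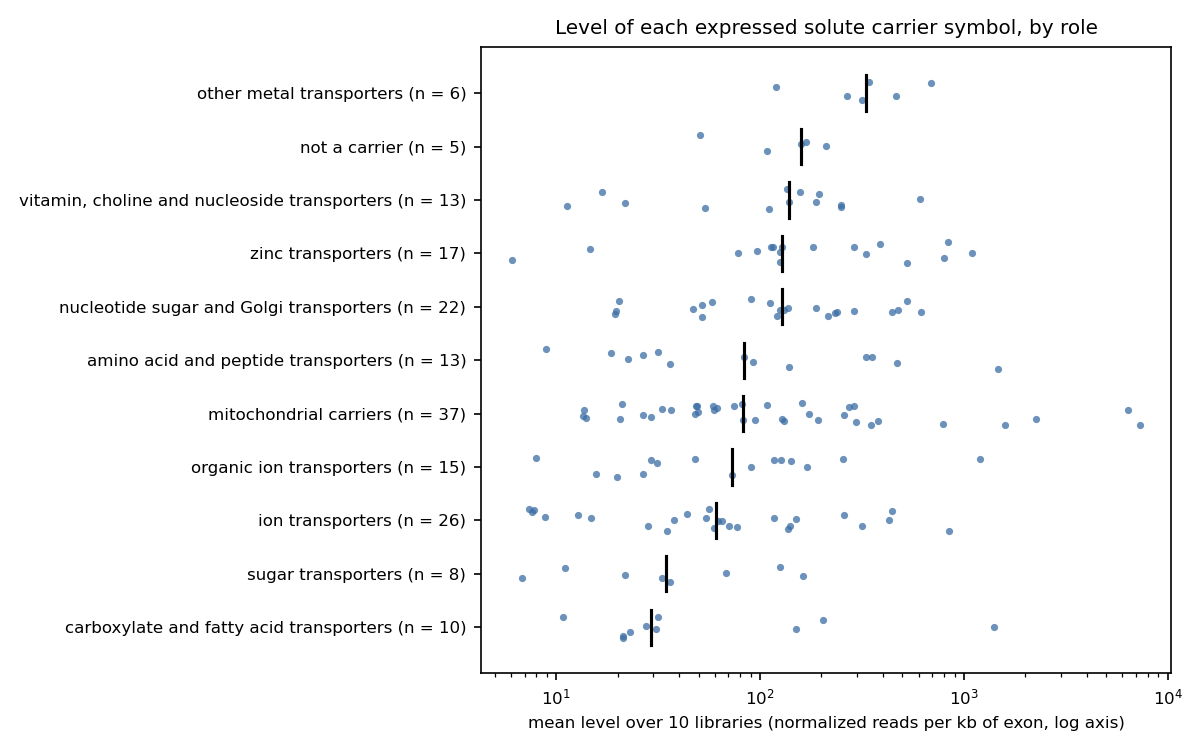
Mean level of each of the 172 members over the 10 libraries, in normalized reads per kb of exon on a log axis, with 1 point per member, members grouped by role and the vertical bar at the median of the role. Mitochondrial carriers hold the 4 highest points, from 1588 to 7304, while their median of 82.3 lies below that of the zinc transporters (128).

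Across groups the members moved little. The highest group mean was a median of 1.29 times the lowest, against 1.26 over the 11093 genes of the table at the same threshold, and 20.9% of members had a ratio of at least 1.5, against 16.6% of those genes. Slco5a1 (2.87) and Slc4a5 (2.02) were among the 3 members whose ratio reached 2. In neither of them was shRenilla the highest or the lowest group.

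With Serpine2 lowered, 6 of the 11 zinc importers of the ZIP family, the copper importer Slc31a1, the iron importer Slc11a2 and the heme carrier Slc48a1 rose, while the prostaglandin transporter Slco2a1, the myo-inositol carrier Slc5a3 and the vesicular zinc transporters Slc30a4 and Slc30a7 fell. At an adjusted p under 0.05 in limma, 21 members rose and 11 fell. That is 12.2% and 6.40% of the 172, where 10.7% of all 12299 genes tested rose and 10.8% fell. In either direction 18.6% of members passed, against 21.5% of all genes, so the members changed at about the background rate. Their median log2 difference was 0.06 (0.00 over all genes), no member changed by 1 or more on the log2 scale, and 4 changed by at least 0.5. These are bulk values, in which fewer cells of a type and less RNA per cell cannot be told apart. In 17 of the 21 rises all 4 knockdown libraries lay above both shRenilla libraries, and in all 11 falls they lay below. The members counted had passed this same test, so their separation from the controls is a description. Its share over all genes was not computed. The count rests on single libraries: without shRenilla library A 12 members passed, without library B 8 and without shSerpine2-2 library B 19, and with A and B averaged so that each hairpin line was 1 value 0 passed in limma, with 6 at an unadjusted p under 0.05. Under every other alternative tried, 7 members kept their call: Slc16a6, Slc20a1, Slc31a1, Slc35e4, Slc38a1, Slc39a4 and Slco2a1.

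With Slpi lowered, the same 6 ZIP members, Slc31a1, Slc11a2 and the phosphate carrier Slc20a1 rose, and Slco2a1, Slc5a3, several organic ion carriers of the Slc22 family and the fatty acid transporter Slc27a1 fell. Here 33 members rose and 26 fell, which is 19.2% and 15.1% of the 172. Over all genes 16.5% rose and 18.3% fell. In either direction the share was 34.3% of members and 34.8% of genes. The median log2 difference was 0.03 (-0.01 over all genes), no member changed by 1 or more, and 8 changed by at least 0.5. In 28 of the 33 rises all 4 Slpi libraries lay above both controls, and in 24 of the 26 falls below. These too were counted among members that had passed the test, and without a share over all genes. Without both shSlpi-2 libraries 23 of the 59 calls were lost, and without shRenilla library A or B the count was 31 or 37. With each hairpin line as 1 value 0 members passed in limma, with 17 at an unadjusted p under 0.05.

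More abundant members were called more often, as among all genes. Of the 45 members with a mean of at least 1000 normalized reads, 16 (35.6%) passed with Serpine2 lowered and 21 (46.7%) with Slpi lowered, where the shares of all genes at that level were 33.9% and 49.5%. Of the 32 members with a mean under 100, 2 and 5 passed (6.25% and 15.6%; all genes 7.42% and 13.9%). The median SE of the log2 difference was 0.0487 in the first class and 0.178 in the second, so small differences could be resolved for abundant carriers and not for scarce ones. Counts by family, role or list below stand against the shares of all genes. Those were 10.7% higher and 10.8% lower with Serpine2 lowered, and 16.5% and 18.3% with Slpi lowered.

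Rises in both knockdowns were called for 14 members and falls in both for 8, none was called in opposite directions, and 103 passed in neither. Since both comparisons use the same shRenilla libraries, these counts are a description. The shares of all genes in the same classes were not computed. Of the 22, 11 differed between the Serpine2 and Slpi hairpins, a comparison that does not use shRenilla.

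**Figure D2:**
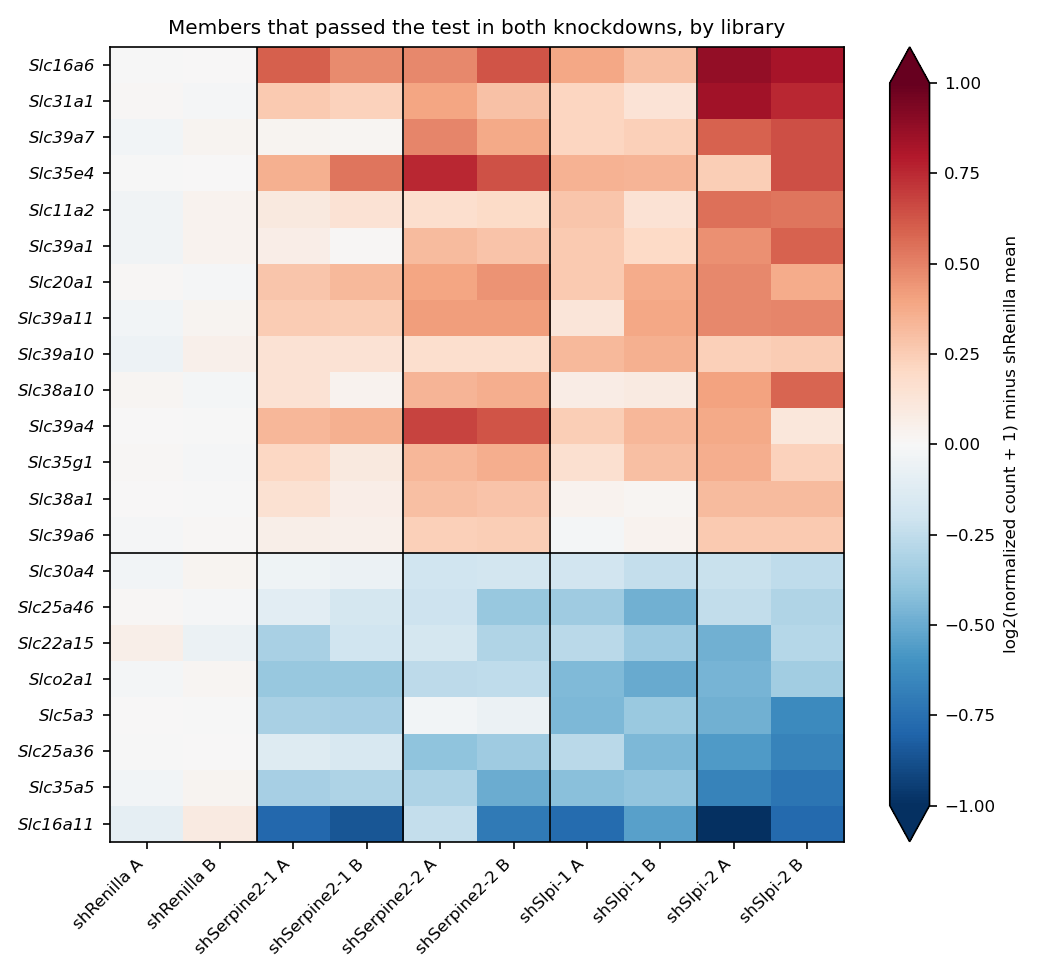
Log2(normalized count + 1) of each library minus the mean of the 2 shRenilla libraries, for the 14 members that rose (upper block) and the 8 that fell (lower block) in both knockdowns; rows are members, columns the 10 libraries, and colour runs from -1 to 1, with values past either end drawn in the end colour. The darkest rises are those of Slc16a6 and Slc31a1 in the shSlpi-2 libraries, and Slc5a3 with shSerpine2-2 and Slc39a6 with shSlpi-1 lie close to the control.

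Rises among the 17 zinc transporters numbered 6 with Serpine2 lowered and 7 with Slpi lowered, against 10.7% and 16.5% of all genes, and all but 1 of them were of ZIP members. Of the 11 ZIP members, 6 rose and 0 fell with Serpine2 lowered, and the same 6 rose and 0 fell with Slpi lowered: Slc39a1, Slc39a4, Slc39a6, Slc39a7, Slc39a10 and Slc39a11. No ZIP member was lower at an unadjusted p under 0.05 in either comparison. The other five, Slc39a3, Slc39a8, Slc39a9, Slc39a13 and Slc39a14, passed neither test and had log2 differences of -0.18 to 0.05 with Serpine2 lowered and -0.27 to 0.10 with Slpi lowered. The median over the 11 was 0.15 and 0.13. Of the 6 ZnT members, 0 rose and 2 fell (Slc30a4 and Slc30a7) with Serpine2 lowered, and 1 rose (Slc30a5) and 2 fell (Slc30a1 and Slc30a4) with Slpi lowered. The ZIP count depended on the controls: without shRenilla library A it was 1 rise with Serpine2 lowered and 4 with Slpi lowered, and without library B 2 and 4. With the shSlpi-2 libraries left out there were 6 rises and 1 fall for Serpine2, and 5 rises and 1 fall for Slpi. The hairpins to each target differed as well. Of the 11 ZIP members, 5 were called lower with shSerpine2-1 than with shSerpine2-2, and 0 higher. Between shSlpi-1 and shSlpi-2, 3 were called lower with shSlpi-1 and 0 higher. Slc39a1, Slc39a6 and Slc39a7 were in both sets. Over all genes 7.69% and 12.3% were lower with the first hairpin.

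The upstream sequence of 5 of these metal carriers is shown because their transcripts changed in both knockdowns and a known zinc-dependent factor, Mtf1, binds metal response elements in promoters of metal genes. For Slc39a4, Slc39a6 and Slc11a2, which also changed in both, no sequence or match count is given. Each stretch is the longest run without an annotated exon in the 250 bases before the RefSeq start site (GRCm38.p6), written 5′ to 3′ on the gene's strand. Capitals mark matches to TGCNCNC on either strand. That pattern is looser than the element's core TGCRCNC, in which R is A or G. The stretches are chr4:62360549-62360700 on the plus strand for Slc31a1, chr3:90247942-90248171 on the plus strand for Slc39a1, and chr17:34031691-34031811 on the minus strand for Slc39a7. Those of Slc39a11 and Slc30a4 are chr11:113650093-113650342 and chr2:122702664-122702904, both on the minus strand.
Slc31a1: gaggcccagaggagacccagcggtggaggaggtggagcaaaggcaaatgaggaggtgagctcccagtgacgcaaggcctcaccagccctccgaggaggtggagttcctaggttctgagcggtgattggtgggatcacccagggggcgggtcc
Slc39a1: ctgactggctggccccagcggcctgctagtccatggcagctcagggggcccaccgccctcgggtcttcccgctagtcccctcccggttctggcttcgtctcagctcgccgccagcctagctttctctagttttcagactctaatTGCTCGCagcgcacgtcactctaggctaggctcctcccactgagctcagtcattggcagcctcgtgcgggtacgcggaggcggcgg
Slc39a7: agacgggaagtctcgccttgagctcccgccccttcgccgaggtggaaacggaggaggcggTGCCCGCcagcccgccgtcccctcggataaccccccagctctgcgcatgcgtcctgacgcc
Slc39a11: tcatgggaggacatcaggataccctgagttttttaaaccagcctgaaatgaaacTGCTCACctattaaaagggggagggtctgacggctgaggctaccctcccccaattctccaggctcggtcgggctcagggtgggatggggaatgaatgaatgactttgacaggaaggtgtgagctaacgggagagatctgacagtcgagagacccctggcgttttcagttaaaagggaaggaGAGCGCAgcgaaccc
Slc30a4: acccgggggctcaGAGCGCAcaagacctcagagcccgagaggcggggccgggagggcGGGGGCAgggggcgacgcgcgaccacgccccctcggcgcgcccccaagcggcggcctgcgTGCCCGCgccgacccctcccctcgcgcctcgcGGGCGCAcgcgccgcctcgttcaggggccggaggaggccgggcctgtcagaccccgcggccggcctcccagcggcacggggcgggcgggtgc
Slc30a4, which fell, holds 4 matches in its stretch, and Slc39a11, Slc39a1 and Slc39a7, which rose, hold 2, 1 and 1. The matches printed for Slc39a1 (TGCTCGC) and Slc39a7 (TGCCCGC) lie outside the stricter core. So do TGCTCAC in Slc39a11 and GGGGGCA and TGCCCGC in Slc30a4. The remaining matches, GAGCGCA in either gene and GGGCGCA in Slc30a4, fit the stricter core on the opposite strand. Slc31a1, which rose, holds 0. In the whole 250 bases Slc39a7 holds 2. Slc39a10, which rose and is not printed, holds 0 in the 250 bases before either of its RefSeq starts, and a second start of Slc39a11 has 3. So short and loose a pattern is common: 44.4% of 32851 RefSeq promoters hold it within 250 bases. So do 50.8% of the 181 promoters of the 134 members that matched a RefSeq entry. A match is not a shown binding site, and matches to the stricter core were not counted over these promoters. Of 3 other motifs searched in the same windows, the antioxidant response element core TGACNNNGC was in 15.5% of member promoters and 10.2% of all, the E-box CACGTG in 12.2% and 6.02%, and the amino acid response element core TGATGNAA in 3.31% and 3.45%. These shares are given without a test.

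Slc31a1, the main importer of copper, lies on the plus strand of chromosome 4 from 62360727 to 62391769 (GRCm38). It stood at 2340 and 2306 normalized reads in shRenilla, 2791 and 2726 with shSerpine2-1, 3060 and 2853 with shSerpine2-2, 2690 and 2553 with shSlpi-1, and 4158 and 3922 with shSlpi-2. Every knockdown library was above both controls, and the shSlpi-2 libraries were far above the rest. The log2 difference was 0.30 (SE 0.047, limma adjusted p = 3.66e-04) with Serpine2 lowered and 0.49 (SE 0.047, adjusted p = 1.03e-06) with Slpi lowered. Between the Slpi hairpins it was -0.62 (SE 0.054, adjusted p = 8.87e-07), the lower value with shSlpi-1. The difference between Serpine2 and Slpi hairpins was -0.19 (adjusted p = 0.00308), and without both shSlpi-2 libraries it turned to 0.12, which was also called.

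Slc11a2, the importer of ferrous iron and other divalent metals (chromosome 15, 100387898 to 100425072, minus strand), stood at 1416 and 1493 in shRenilla, 1559 and 1606 with shSerpine2-1, 1630 and 1660 with shSerpine2-2, 1765 and 1608 with shSlpi-1, and 2131 and 2104 with shSlpi-2. All 8 knockdown libraries lay above both controls, and shSlpi-2 was the highest group. Its log2 difference was 0.15 with Serpine2 lowered (SE 0.051, limma adjusted p = 0.0439) and 0.38 with Slpi lowered (SE 0.051, adjusted p = 3.08e-05). The first of these calls was lost when any single library of the groups compared was left out. Beside it, the transferrin receptor Tfrc, which brings in iron bound to transferrin, rose by 0.24 and 0.28 on the log2 scale, and the ferritin heavy chain Fth1, which stores it, by 0.18 and 0.13. The Fth1 rises rested on the second hairpin of each target: group means were 20426 in shRenilla, 20156 with shSerpine2-1 and 20447 with shSlpi-1, against 26523 with shSerpine2-2 and 24443 with shSlpi-2.

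Slc48a1, which carries heme out of lysosomes, stood at 1222 and 1184 in shRenilla, 1303 and 1363 with shSerpine2-1, 1630 and 1512 with shSerpine2-2, 1273 and 1217 with shSlpi-1, and 1035 and 1113 with shSlpi-2. Only the Serpine2 libraries were all above the controls. It rose with Serpine2 lowered (log2 difference 0.27, SE 0.055, limma adjusted p = 0.00264), a call lost without shRenilla library B, while with Slpi lowered the difference was -0.06 (adjusted p = 0.443). The difference between the knockdowns was itself called, at 0.32 (SE 0.045, adjusted p = 1.48e-04), and that call was kept under every alternative but the one with hairpin lines as units.

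Among the ZIP members, Slc39a10, an importer at the cell surface (chromosome 1, 46807544 to 46892852, minus strand), was the most abundant. It stood at 5688 and 6094 normalized reads in shRenilla, 6519 and 6497 with shSerpine2-1, 6607 and 6616 with shSerpine2-2, 7391 and 7539 with shSlpi-1, and 6929 and 7002 with shSlpi-2. All knockdown libraries were above both controls, and those of Slpi were above those of Serpine2. The log2 difference was 0.16 (SE 0.040, limma adjusted p = 0.0113) and 0.29 (SE 0.040, adjusted p = 3.76e-05), and the knockdowns differed by -0.14 (adjusted p = 0.00882). The first call was lost without shRenilla library A.

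Slc39a7, which releases zinc from the endoplasmic reticulum and Golgi apparatus, stood at 689 and 718 in shRenilla, 718 and 714 with shSerpine2-1, 990 and 914 with shSerpine2-2, 815 and 829 with shSlpi-1, and 1060 and 1098 with shSlpi-2. With shSerpine2-1 it was at the level of the controls, and the rise with Serpine2 lowered (log2 difference 0.23, SE 0.057, limma adjusted p = 0.00892) rested on shSerpine2-2, and its call was lost without either shRenilla library. With Slpi lowered both hairpins were above the controls (0.42, SE 0.057, adjusted p = 3.34e-05). Of its exon bases 80.7% are shared with an annotated transcript, Gm20427, on the same strand, and how reads there were assigned is not stated.

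Slc39a1, a zinc importer of the cell surface, showed the same order: 765 and 799 in shRenilla, 819 and 786 with shSerpine2-1, 973 and 951 with shSerpine2-2, 938 and 897 with shSlpi-1, and 1074 and 1175 with shSlpi-2. The shSerpine2-1 libraries overlapped the controls. The log2 difference was 0.38 (SE 0.058, limma adjusted p = 1.09e-04) with Slpi lowered. With Serpine2 lowered it was 0.17 (adjusted p = 0.0475), a call lost when any one library of the groups compared was left out.

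Slc39a4, an importer best known from the intestine, stood at 194 and 193 in shRenilla, 244 and 247 with shSerpine2-1, 310 and 300.2 with shSerpine2-2, 230 and 243 with shSlpi-1, and 252 and 209 with shSlpi-2. All knockdown libraries were above both controls, those of shSerpine2-2 most. Its log2 difference was 0.50 (SE 0.094, limma adjusted p = 0.00152) and 0.27 (SE 0.094, adjusted p = 0.0359), and the second call was lost without either shRenilla library, and also without library A of shSlpi-2 or library B of shSlpi-1. Slc39a11, another ZIP member, stood at 303 and 314 in shRenilla and 337 to 434 in the 8 knockdown libraries, with log2 differences of 0.33, lost without either shRenilla library, and 0.37. Slc39a6, a relative of Slc39a10, rose by 0.15 and 0.13, but with shSlpi-1 it stood at 1937 and 2019 against 1946 and 1987 in shRenilla, and without both shSlpi-2 libraries the difference was 0.01. Its Serpine2 call was lost without any one library of the groups compared, and its Slpi call also without either shRenilla library or shSlpi-1 library B.

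Slc30a4, which loads zinc into vesicles (chromosome 2, 122681233 to 122702663, minus strand), moved the other way. It stood at 4977 and 5152 in shRenilla, 4909 and 4854 with shSerpine2-1, 4401 and 4448 with shSerpine2-2, 4438 and 4290 with shSlpi-1, and 4346 and 4235 with shSlpi-2. All 8 knockdown libraries lay below both controls, and the shSerpine2-1 libraries lay closest to them. The log2 difference was -0.12 (SE 0.040, limma adjusted p = 0.036) and -0.23 (SE 0.040, adjusted p = 3.49e-04), and the first was lost without any one library of the groups compared. Slc30a1, the zinc exporter of the cell surface, stood at 676 and 656 in shRenilla and 541 to 634 in the 4 Slpi libraries, a fall of 0.21 on the log2 scale (adjusted p = 0.0219) that was lost without either shRenilla library or shSlpi-1 library B. With the Serpine2 hairpins it split: 591 and 633 with shSerpine2-1, 833 and 879 with shSerpine2-2, a difference of -0.48 (SE 0.075, adjusted p = 6.93e-04).

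**Figure D3:**
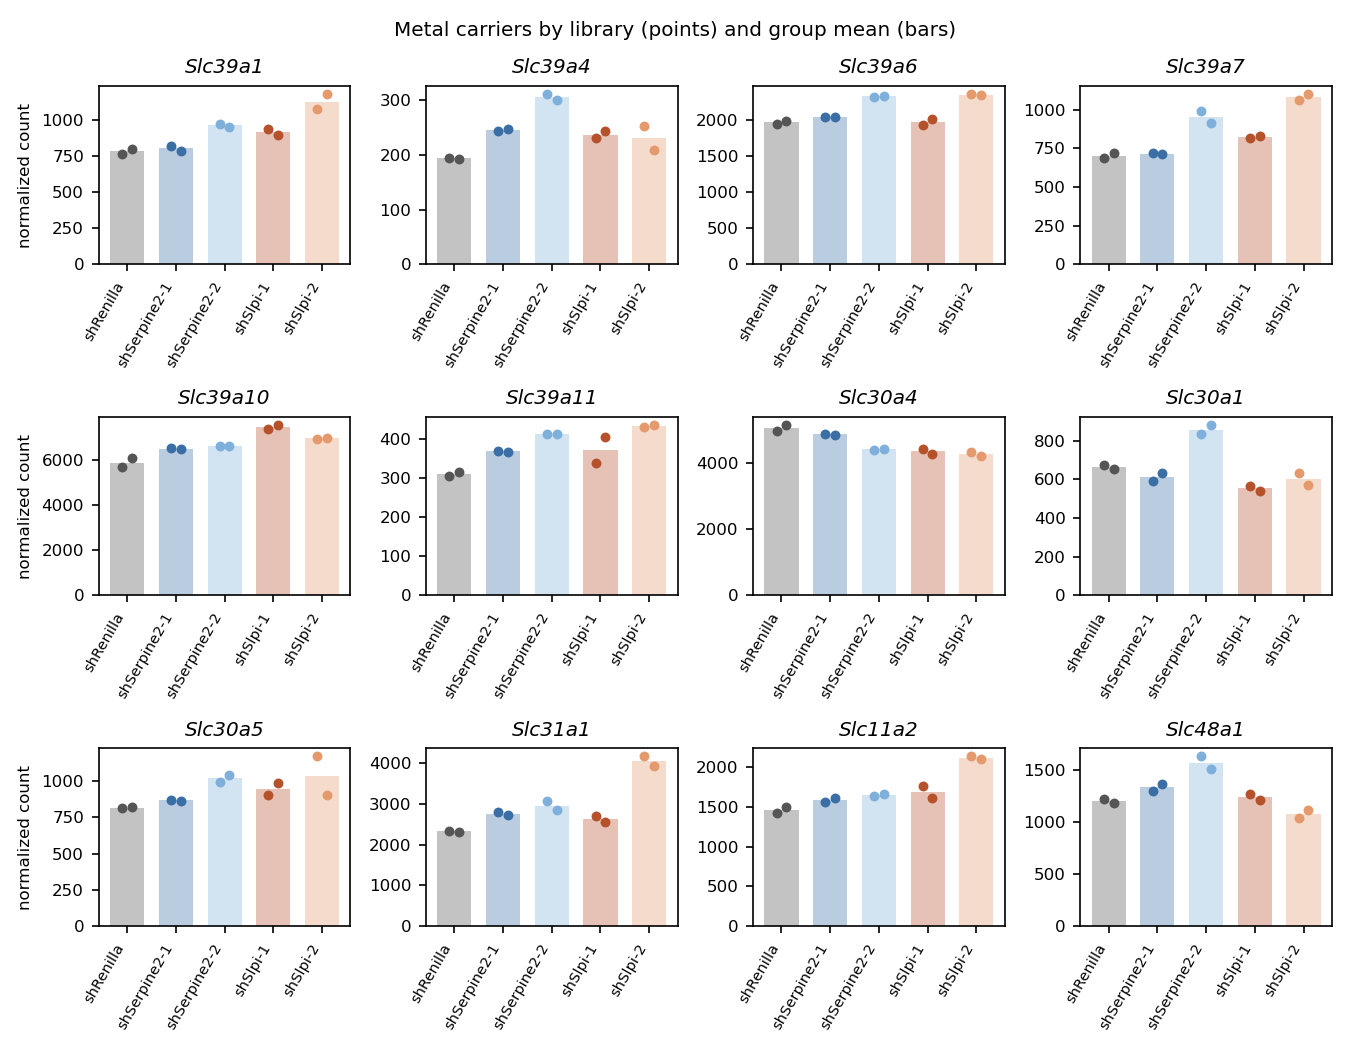
Normalized counts of 12 metal carriers in the 10 libraries (points), with bars at the mean of the 2 libraries of each group and axes from 0. Slc31a1 and Slc11a2 are highest with shSlpi-2 (4158 and 3922, 2131 and 2104), and Slc30a4 is lower in all 8 knockdown libraries than in shRenilla (4977 and 5152).

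Other genes of metal handling gave a mixed count. Of 13 tested, 3 rose and 1 fell with Serpine2 lowered, and 4 rose and 3 fell with Slpi lowered. Over all genes 10.7% rose and 10.8% fell in the first comparison, and 16.5% and 18.3% in the second. The copper exporting pump Atp7a fell by 0.17 and 0.26 on the log2 scale, and Atox1, the chaperone that hands copper to such pumps, had a difference of 0.24 that did not pass and a rise of 0.49. Metallothioneins bind zinc and copper and respond to both: Mt1 had differences of 0.02 and 0.04, neither of which passed, and Mt2 had -0.10, which did not pass, and fell by 0.36 with Slpi lowered. Mtf1 itself had differences of -0.02 and -0.05 that did not pass.

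Among organic ion carriers, Slco2a1, which takes up prostaglandins for degradation, was the most abundant. It lies on the plus strand of chromosome 9 from 102988712 to 103096002. It stood at 19716 and 20312 normalized reads in shRenilla, 15401 and 15404 with shSerpine2-1, 16714 and 16817 with shSerpine2-2, 14701 and 14081 with shSlpi-1, and 14529 and 15686 with shSlpi-2. Controls and knockdowns were well separated, and the groups of each target lay close together. The log2 difference was -0.32 (SE 0.042, limma adjusted p = 9.82e-05) and -0.44 (SE 0.042, adjusted p = 8.90e-07), and both calls were kept under every alternative but the one with hairpin lines as units.

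The Slc22 family carries organic cations, anions and carnitine. Of its 6 members, 0 rose and 1 fell with Serpine2 lowered, and 0 rose and 4 fell with Slpi lowered. Over all genes 10.8% and 18.3% fell. Slc22a15 fell in both (-0.25 and -0.35), the first call being lost without either shRenilla library, shSerpine2-1 library A or shSerpine2-2 library B and the second without shRenilla library A. Slc22a23 stood at 902 and 781 in shRenilla, 730 and 723 with shSerpine2-1, 853 and 851 with shSerpine2-2, and 629 to 703 in the Slpi libraries, which lay below all others. It fell by 0.37 on the log2 scale with Slpi lowered (SE 0.068, limma adjusted p = 5.38e-04). Slc22a29 fell from 50.6 and 52.9 to 24.2 to 35.4 (log2 difference -0.84, SE 0.22, adjusted p = 0.00783), a call lost without either shRenilla library. Its mean lay just inside the member threshold, which equals 30.8 normalized reads, and its high shRenilla values helped it become a member. Choice by the mean favours a fall in such a gene. Slc22a4, a carrier of ergothioneine, fell by 0.40, a call lost without shRenilla library A or both shSlpi-2 libraries (-0.18). Without shRenilla library A, 1 of the 4 falls was called.

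Slc5a3, the sodium-coupled carrier of the osmolyte myo-inositol (chromosome 16, 92058322 to 92087473, plus strand), stood at 7947 and 7905 in shRenilla, 6321 and 6299 with shSerpine2-1, 7779 and 7613 with shSerpine2-2, 5801 and 6118 with shSlpi-1, and 5685 and 5103 with shSlpi-2. Both Slpi hairpins and shSerpine2-1 were well below the control, and shSerpine2-2 only just. With Serpine2 lowered the log2 difference was -0.19 (SE 0.046, limma adjusted p = 0.0086), with Slpi lowered -0.48 (SE 0.046, adjusted p = 8.90e-07), and between the Serpine2 hairpins -0.29 (adjusted p = 0.00217). The first call was lost without either shRenilla library. Slc19a1, the reduced folate carrier, stood at 545 and 556 in shRenilla and 629 to 717 in the Serpine2 libraries, a rise of 0.28 (adjusted p = 0.00947) that was also lost without either of them.

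The sodium-phosphate carriers Slc20a1 and Slc20a2 took different directions. Slc20a1 stood at 2042 and 2001 in shRenilla, 2450 and 2531 with shSerpine2-1, 2660 and 2760 with shSerpine2-2, 2426 and 2614 with shSlpi-1, and 2819 and 2609 with shSlpi-2. Slc20a2 stood at 5758 and 5795, 5287 and 5367, 5430 and 5587, 5120 and 4988, and 4366 and 4909 in the same order. Every knockdown library was above the controls for the first gene and below them for the second. Slc20a1 rose by 0.36 and 0.37 on the log2 scale (SE 0.049, limma adjusted p = 1.19e-04 and 2.49e-05). Slc20a2 fell by 0.26 with Slpi lowered (SE 0.046, adjusted p = 4.44e-04), and its difference with Serpine2 lowered was -0.09 (adjusted p = 0.167). Exons of antisense transcripts cover 13.1% of the exon bases of Slc20a1, and whether counting used strand is not stated. Among all 26 ion transporters 1 rose and 0 fell with Serpine2 lowered, and 4 rose and 2 fell with Slpi lowered. Slc4a11, of the bicarbonate transporter family, stood at 210 and 257 in shRenilla and 299 to 340 in the Slpi libraries, a rise of 0.49 (SE 0.099, adjusted p = 0.00106). Its difference between the knockdowns was -0.36 (adjusted p = 0.00602).

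Of 23 tested carriers of solute carrier families under other symbols, 2 rose and 2 fell with Serpine2 lowered and 2 rose and 4 fell with Slpi lowered. Ank, which exports pyrophosphate and ATP, fell by 0.31 and 0.64 on the log2 scale (limma adjusted p = 9.73e-05 and 1.47e-08) from a mean of 10245 normalized reads in shRenilla. Of 6 tested carrier partners and sodium pump subunits 2 rose and 0 fell in each knockdown, the pump's beta subunit Atp1b1 by 0.59 and 0.67.

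The carboxylate carriers of the Slc16 family split, with 1 rise and 2 falls among 7 members with Serpine2 lowered and 2 of each with Slpi lowered. Slc16a6, a member known for ketone body export from liver, stood at 110 and 110 in shRenilla, 167 and 153 with shSerpine2-1, 154 and 171 with shSerpine2-2, 144 and 135 with shSlpi-1, and 203 and 195 with shSlpi-2. Slc16a11, a member found in liver, stood at 107 and 121, 65.7 and 62.7, 96.6 and 69.7, 66.5 and 78.0, and 50.3 and 66.3 in that order. The groups did not overlap the controls in either gene, and the directions were opposite. Slc16a6 rose by 0.55 and 0.60 (SE 0.11, limma adjusted p = 0.00196 and 4.20e-04). The Slpi call was lost without both shSlpi-2 libraries (0.34), and 23.5% of its exon bases lie in exons of other genes. Slc16a11 fell by 0.65 and 0.81 (SE 0.17, adjusted p = 0.0132 and 0.00153), and its Serpine2 call was lost without shRenilla library A, library B or shSerpine2-2 library B. Slc16a1, the lactate carrier, stood at 5715 and 5737 in shRenilla and 5698 to 6893 in the Slpi libraries, a small rise of 0.16 (adjusted p = 0.0122) that overlapped the controls and was not called without either shRenilla library, shSlpi-1 library A or both shSlpi-2 libraries (0.07).

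The 3 fatty acid transporters of the Slc27 family split with Slpi lowered: Slc27a6 rose, Slc27a1 fell and 1 did not pass. Their median log2 difference was 0.25. Slc27a1 stood at 1012 and 1035 in shRenilla, 892 and 868 with shSerpine2-1, 1009 and 1019 with shSerpine2-2, 776 and 856 with shSlpi-1, and 700 and 626 with shSlpi-2. The Slpi libraries lay below all others. Its log2 difference was -0.48 (SE 0.062, limma adjusted p = 2.20e-05), and the Serpine2 hairpins stood 0.36 above the Slpi hairpins (adjusted p = 1.63e-04).

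The nucleotide sugar and Golgi transporters had 4 rises and 2 falls among 22 members with Serpine2 lowered, and 5 rises and 3 falls with Slpi lowered. Slc35a5, an organellar member, stood at 591 and 612 in shRenilla, 478 and 486 with shSerpine2-1, 485 and 427 with shSerpine2-2, 449 and 458 with shSlpi-1, and 378 and 363 with shSlpi-2. Slc35e4, of unknown cargo, stood at 278 and 280, 356 and 404, 472 and 433, 355 and 353, and 332 and 437 in that order. Again no knockdown library overlapped the controls. Slc35a5 fell by 0.36 and 0.55 on the log2 scale (SE 0.071, limma adjusted p = 0.00213 and 2.15e-05), and the first call was lost without shRenilla library B. Slc35e4 rose by 0.57 and 0.39 (SE 0.099, adjusted p = 8.51e-04 and 0.00531), and the second call was lost without either shRenilla library. Slc35c1, which carries GDP-fucose, rose by 0.28 with Serpine2 lowered (adjusted p = 0.0112), a call lost without either shRenilla library or shSerpine2-2 library B. Slc35a2, which carries UDP-galactose, stood at 188 and 191 in shRenilla, 206 and 263 with shSlpi-1, and 351 and 338 with shSlpi-2, a rise of 0.58 (adjusted p = 3.01e-04) that was not called without both shSlpi-2 libraries (0.30).

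Enzymes that make nucleotide sugars gave 1 rise and 0 falls among 19 tested with Serpine2 lowered, and 5 rises and 2 falls with Slpi lowered. With Slpi lowered, Uap1 rose by 0.36 on the log2 scale (limma adjusted p = 1.37e-04) and Cmas fell by 0.19 (adjusted p = 0.0118). Their differences with Serpine2 lowered, 0.06 and -0.11, did not pass. Gmds and Tsta3 act in turn in the synthesis of GDP-fucose. Gmds rose by 0.44 and 0.51 on the log2 scale (limma adjusted p = 0.0148 and 0.00327), and Tsta3 rose by 0.61 with Slpi lowered (adjusted p = 5.60e-04), while its difference of 0.30 with Serpine2 lowered did not pass (adjusted p = 0.0697).

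Mitochondrial carriers are the largest family, with 37 members, and changed little with Serpine2 lowered: 2 rose, 2 fell and 33 did not pass. With Slpi lowered 5 rose and 6 fell, where 16.5% of all genes rose and 18.3% fell. Slc25a4 stood at 18333 and 19470 in shRenilla, 19106 and 19092 with shSerpine2-1, 16443 and 17414 with shSerpine2-2, 17158 and 16115 with shSlpi-1, and 13842 and 14881 with shSlpi-2. Slc25a5 stood at 10231 and 10315, 11147 and 11590, 11114 and 11618, 10582 and 10790, and 8683 and 9114 in that order. For Slc25a4 the 4 Slpi libraries lay below the controls, and for Slc25a5 the 4 Serpine2 libraries lay above them. Slc25a4 fell by 0.29 with Slpi lowered (SE 0.046, limma adjusted p = 1.33e-04). Slc25a5 rose by 0.15 with Serpine2 lowered (SE 0.040, adjusted p = 0.0162), a call lost without library A or B of shRenilla or library B of either Serpine2 hairpin. Both stood 0.22 higher with Serpine2 hairpins than with Slpi hairpins (adjusted p = 8.77e-04 and 2.78e-04).

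Slc25a36, which brings pyrimidine nucleotides into mitochondria, stood at 871 and 878 in shRenilla, 799.7 and 784 with shSerpine2-1, 661 and 683 with shSerpine2-2, 724 and 642 with shSlpi-1, and 589.6 and 549 with shSlpi-2. Slc25a46, which sits in the outer membrane and takes part in mitochondrial fission and fusion, stood at 2226 and 2194, 2049 and 1961, 1918 and 1696, 1723 and 1584, and 1859 and 1795. All knockdown libraries were below the controls in both genes. Slc25a36 fell by 0.26 and 0.49 (SE 0.064, limma adjusted p = 0.00836 and 2.38e-05), and Slc25a46 by 0.22 and 0.35 (SE 0.055, adjusted p = 0.011 and 1.54e-04). Both Serpine2 calls were lost without either shRenilla library, and that of Slc25a46 also without shSerpine2-2 library B. Slc25a48, an inner membrane carrier of low level, rose by 0.63 with Slpi lowered (SE 0.16, adjusted p = 0.00587) from 52.7 and 50.7 to a range of 71.5 to 87.7, a call lost without shRenilla library B.

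Of the 13 amino acid and peptide carriers left after the exclusions, 2 rose and 0 fell with Serpine2 lowered, and 4 rose and 2 fell with Slpi lowered. Slc38a1, a sodium-coupled importer of glutamine (chromosome 15, 96571418 to 96642913, minus strand), stood at 5521 and 5475 in shRenilla, 6105 and 5761 with shSerpine2-1, 6779 and 6699.8 with shSerpine2-2, 5637 and 5569 with shSlpi-1, and 6865 and 6859 with shSlpi-2. The second hairpin of each target gave the high values, and the first lay closer to the controls. It rose by 0.20 (SE 0.039, limma adjusted p = 0.00193) and 0.17 (SE 0.039, adjusted p = 0.00273), and without both shSlpi-2 libraries the Slpi difference was 0.03 and not called. Slc38a10 showed the same order and rose by 0.22 and 0.29, where the second became 0.08 and was not called without them. Its Serpine2 call was lost without either shRenilla library, shSerpine2-1 library A or shSerpine2-2 library B. Slc43a2, an exporter of large neutral amino acids, stood at 114 and 108 in shRenilla, 56.8 and 63.9 with shSerpine2-1, 130 and 111 with shSerpine2-2, and 68.6 to 92.8 in the Slpi libraries, and fell by 0.50 with Slpi lowered (adjusted p = 0.0101), a call lost without either shRenilla library. Of the 8 sugar carriers, 0 passed with Serpine2 lowered in limma, 2 of them at an unadjusted p under 0.05, and 1, the urate carrier Slc2a9, fell with Slpi lowered (-0.24), a call lost without either shRenilla library or shSlpi-1 library A.

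The direct comparison of the knockdowns, which leaves shRenilla out of the contrast, called 41 members (23.8%, against 17.5% of all genes). Of these 24 were higher with the Serpine2 hairpins and 17 with the Slpi hairpins, where 10.3% and 7.21% of all genes passed. Slco5a1, an organic anion carrier family member of unsettled cargo, had the largest difference: it stood at 63.2 to 91.3 in the Serpine2 libraries, 91.7 and 93.6 with shSlpi-1, and 204 and 190 with shSlpi-2. The difference of -0.84 (SE 0.11, limma adjusted p = 1.07e-04) rested on shSlpi-2, without which it was -0.30 and not called. Without both shSlpi-2 libraries 19 of the 41 calls were lost or turned in direction. With each hairpin line as 1 value 0 passed in limma, with 7 at an unadjusted p under 0.05. Under every other alternative 13 kept their call, among them Slc5a3, Slc27a1, Slc48a1, Slc25a4, Slc25a5 and Slc30a1.

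The hairpins to 1 target also differed from each other, in 34 members for Serpine2, where 32 differed from the control, and in 43 for Slpi, where 59 did. The shSerpine2-1 libraries also held less Slpi than those of shSerpine2-2, as given above. Between shSerpine2-1 and shSerpine2-2, 34 members differed (19.8%, against 14.7% of all genes), 7 being higher and 27 lower with shSerpine2-1, where the shares of all genes were 6.98% and 7.69%. Zinc transporters made up 1 of the 7 and 7 of the 27. Slc43a2 (-0.98, SE 0.16, limma adjusted p = 8.95e-04) and the organic anion carrier Slco4a1 (-0.81, SE 0.12, adjusted p = 5.36e-04) were lower with shSerpine2-1, and Slc37a2, a sugar phosphate carrier, was higher (0.88, SE 0.22, adjusted p = 0.013), a call lost without shSerpine2-2 library B or either shSerpine2-1 library. Leaving out 1 of the 4 libraries left 7 to 14 calls, with 7 lacking shSerpine2-2 library B.

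Between shSlpi-1 and shSlpi-2, 43 members differed (25.0%, against 26.1% of all genes), 23 being higher and 20 lower with shSlpi-1 (13.7% and 12.3% of all genes). Mitochondrial carriers made up 11 of the 23. Slc25a27, a member of the uncoupling protein branch, stood at 270 and 248 with shSlpi-1, 157 and 143 with shSlpi-2, and 188 and 218 in shRenilla, so the hairpins lay on either side of the control. The difference was 0.79 (SE 0.12, limma adjusted p = 2.77e-04). The bicarbonate carrier Slc4a5 (0.99, SE 0.20, adjusted p = 0.002) was also higher with shSlpi-1, and Slco5a1 was lower (-1.08, SE 0.16, adjusted p = 1.63e-04). Without shSlpi-1 library B, 26 members passed.

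**Figure D4:**
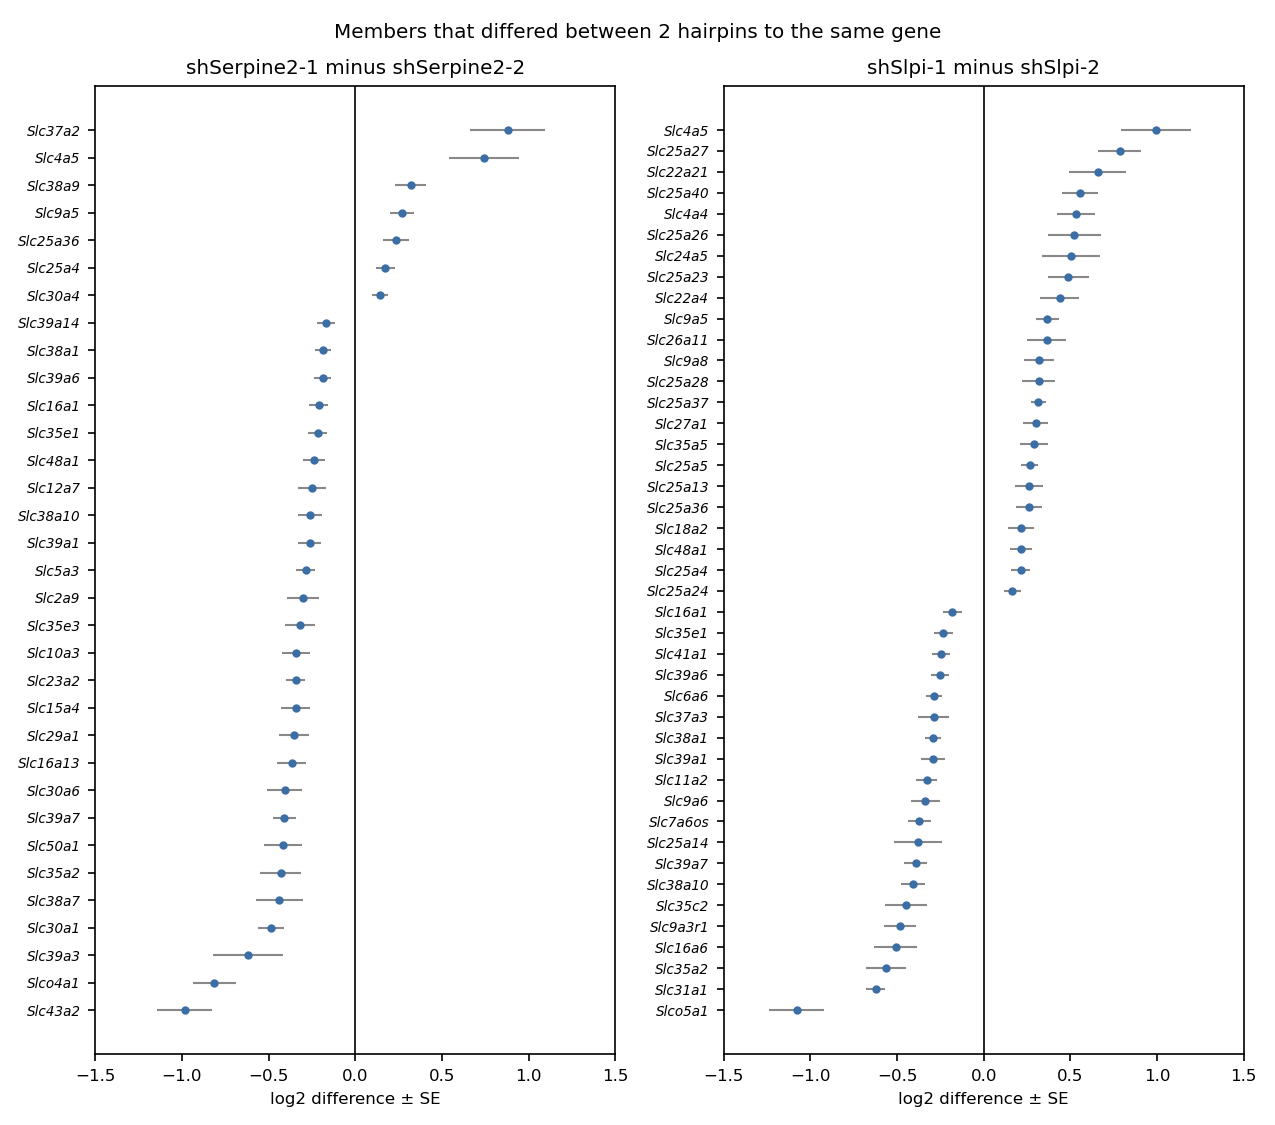
Log2 difference ± SE of members that passed the test between the 2 hairpins to Serpine2 (left, 33 of the 34 members) and to Slpi (right, 43 members), for differences of at most 1.5 in size; points right of the line at 0 were higher with the first hairpin. The largest differences drawn are those of Slc43a2 (-0.98) on the left and Slco5a1 (-1.08) on the right.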

How the data were processed

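The deposited table holds log2 values of 23479 gene entries in 10 libraries. The submitters' processing notes name Bowtie2, HTSeq, DESeq and build mm10. Versions, annotation and strand use: not given in the sources used here. Each deposited column starts at a floor of 6.733366499, the form of the variance-stabilizing transformation in the authors' DESeq, though no label states that step. Inverting it gave normalized counts that, divided by 1 step per library, were whole reads (100% within 0.01 reads, for counts up to 200). Differences were tested on log2(normalized count + 1) by limma (version 3.58.1, R 4.3.3, eBayes with a trend), fitting 5 group means to 12299 genes whose mean was 10 or more. P-values are two-sided, adjusted by Benjamini-Hochberg over those genes and called under 0.05. The script was tested on simulated data. Fold changes on this scale understate those of weakly expressed genes. Exon lengths and positions are from GENCODE M21 (GRCm38), which matched all 172 members (1 by an older symbol), and upstream sequences from RefSeq.

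The members, roles and other gene lists were chosen with earlier results of these data known. The genes named in the text are the 10 highest per kb, the 10 largest rises and falls per knockdown, the 5 largest either way in the other comparisons, the 3 smallest p per role and up to 4 per other list. Slc39a6, Slc30a5, Mt1, Mt2 and Mtf1 were named besides, after their values were seen, to complete the metal genes, as was Slc25a37. Alternatives covered the scale, the pseudocount (8), the filter, quantile normalization, the libraries in the fit, array weights, the library letter, each library in turn and hairpin lines as units. The values of 1 member that the naming rule picked are not reported here, though it is included in the counts.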

Additional observations from a re-analysis of the deposited data

How the results depend on the processing

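Of 209 called differences over the 5 comparisons, 205 kept their direction under every alternative, and 67 kept direction and call under every alternative but the one with hairpin lines as units. The 4 that turned did so without both shSlpi-2 libraries: Slc6a6 with Slpi lowered became -0.011, and between Serpine2 and Slpi hairpins Slc4a4 became -0.021, Slc31a1 0.12 and Slc39a7 0.0062. The cause was not tested.

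The number of members called was 32 with Serpine2 lowered, 59 with Slpi lowered, 41 between them, and 34 and 43 between the hairpins to Serpine2 and to Slpi. For Serpine2 it was 21 without the filter, 64 with only the libraries of the groups compared, 58 with array weights, 62 without both shSlpi-2 libraries and 8 to 24 without 1 library. For the Serpine2 hairpins it was 18, 65, 64 and 59 in the same order of settings, and 7 to 14 without 1 library. For Slpi it was 31 to 70 without 1 library, for Serpine2 against Slpi 22 to 53, and for the Slpi hairpins 26 to 51, with 19 when only their libraries were fitted. With hairpin lines as units limma called 0 members in the 3 comparisons that allow it (6, 17 and 7 at an unadjusted p under 0.05). That fit has fewer samples. Where leaving out 1 library left a group with 1, that library was assumed to vary like the others. The deposited scale, a pseudocount of 8 and quantile normalization kept every count within 1.5 times.

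The letters A and B showed no strong shared pattern between groups: correlations of A minus B ran from -0.0727 to 0.0724. Whether libraries of the same letter were prepared together cannot be told from these values. With the letter as a replicate block 30, 59, 40, 34 and 45 members were called, and among the knockdown results Slc11a2 and Slc39a1 lost their call with Serpine2 lowered (adjusted p = 0.053 and 0.0566). Members with a mean under 100 had a median SE of 0.178, so small differences among them were not detectable at this depth.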

Other observations

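The hairpin group with the highest mean of the 5 was shSerpine2-2 for 54 members, shSlpi-2 for 50, shRenilla for 30, shSlpi-1 for 28 and shSerpine2-1 for 10. The same split over all genes was not computed, so these counts are not known to be particular to solute carriers.

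Importers of iron and glutathione were among the 11 mitochondrial carriers lower with shSlpi-2 than with shSlpi-1. Slc25a37, which supplies iron for heme synthesis, stood at 5208 and 5230 normalized reads with shSlpi-1, 4190 and 4198 with shSlpi-2, and 4777 and 4952 in shRenilla, so that the hairpins lay on either side of the control. The difference was 0.32 on the log2 scale (SE 0.045, limma adjusted p = 1.19e-04). Slc25a40, a carrier needed for mitochondrial glutathione, stood at 290 and 291 with shSlpi-1, 201 and 194 with shSlpi-2, and 232 and 212 in shRenilla (0.56, SE 0.10, adjusted p = 0.001).

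Among the members that encode no carrier, Slc9a3r1, a scaffold protein that binds membrane proteins, stood at 362 and 340.2 with shSlpi-1 and 453 and 531 with shSlpi-2 (-0.48, SE 0.090, limma adjusted p = 0.00109). The pseudogene Slc2a4rg-ps stood at 99.8 to 152 in the Serpine2 libraries and 142 to 209 in the Slpi libraries (-0.57, SE 0.11, adjusted p = 0.00233).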
